A study of Mus musculus with 8 samples.

Results

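The IL-2 receptor pathway was examined in CCR8+ and CCR8- CD4+ Tconv cells from tumors through 10 genes, which encode the cytokine IL-2 (Il2), the receptor chains CD25, CD122 and the common gamma chain (Il2ra, Il2rb, Il2rg), the transcription factors STAT5A and STAT5B (Stat5a, Stat5b) and the feedback inhibitors CIS and SOCS1 to SOCS3 (Cish, Socs1, Socs2, Socs3). They were chosen by gene symbol, and all 10 were present among the 11233 genes of the deposited table and among the 11032 tested. The 8 bulk RNA-Seq libraries, 4 from each population, all came from Foxp3EGFP-DTR mice between 8 and 14 weeks of age that carried subcutaneous B16-F10 tumors, a mouse melanoma line. In these mice Treg cells carry EGFP and the diphtheria toxin receptor from the endogenous locus, and every mouse received 4 doses of 1 μg of diphtheria toxin (DTx) between day 7 and day 13 of tumor growth. Both populations were therefore Treg-depleted, sorted as EGFP-negative CD4+ cells and differed by surface CCR8. The methods and the study's figure legend for these populations give day 16 for the harvest, and another source of the study gives day 18. The methods call replicates biological, but whether a library holds cells of 1 mouse or of several, and whether libraries of the same number share a mouse, is not given in the sources used here.

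IL-2 is made by activated T cells and binds a receptor of 3 chains. CD25 has no signaling domain of its own and raises the affinity of the receptor, whereas CD122 and the common gamma chain signal through the kinases JAK1 and JAK3, which phosphorylate STAT5. STAT5 dimers bind DNA at palindromic sites and induce, among others, the genes of CD25 and of CIS and the SOCS proteins, which in turn dampen the receptor. Treg cells express CD25 constitutively and take up IL-2 from their surroundings, while in conventional T cells CD25 is acquired upon activation.

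Sequence at the start sites of the feedback genes is shown because STAT5 is known to bind sites of the kind searched here near feedback genes such as Cish. The letters TTCNNNGAA, which read the same on both strands and overlap no other motif searched, were looked for in RefSeq promoters of the GRCm38.p6 build, each spanning 250 bases before to 50 bases after a start site. A promoter was listed for 8 of the 10 genes, in 10 windows, and Il2rb and Socs2 were not among them. Matches were found for 2 genes, Cish and Socs3. Of all 32851 promoters of this length, 8.3% held at least 1 match and 0.457% held at least 2. Cish held 2, which start at base 1 and base 12 counted from the start site, and Socs3 held 1, which starts 154 bases before it. A match is a description of the letters in this window only. The RefSeq start sites used here lie inside the genes as GENCODE bounds them, where Cish begins at 107296026 and Socs3, on the minus strand, at 117970047. The match before the start site of Socs3 is therefore also within that annotated gene. The stretches from 200 bases before to 30 bases after the start site are printed 5′ to 3′ on the strand of the gene, with the matches in capitals, for Cish at chr9:107296459-107296688 on the plus strand and for Socs3 at chr11:117969337-117969566 on the minus strand.
Cish: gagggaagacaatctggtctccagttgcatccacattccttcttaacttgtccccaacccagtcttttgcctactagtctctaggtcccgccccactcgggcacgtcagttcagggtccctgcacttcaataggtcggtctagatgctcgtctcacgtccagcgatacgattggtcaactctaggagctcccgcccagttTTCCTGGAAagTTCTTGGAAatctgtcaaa
Socs3: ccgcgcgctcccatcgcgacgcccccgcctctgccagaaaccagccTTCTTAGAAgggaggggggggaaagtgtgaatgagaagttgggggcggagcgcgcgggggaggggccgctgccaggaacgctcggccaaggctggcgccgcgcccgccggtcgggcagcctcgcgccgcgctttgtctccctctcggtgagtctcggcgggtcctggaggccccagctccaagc

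The values are deposited normalized counts, that is read counts divided by 1 factor per library. The libraries held between 12067780 and 17802628 reads, and 3 reads, under which a value was not told apart from 0, corresponded to between 2.21 and 3.42 normalized counts, for counting error only. CCR8- replicate 1 stood apart: 8569 genes were detected in it, compared with 9544 to 10882 in the others, and 242 genes were at 0 there that had at least 100 normalized counts in each other library. By the same count, 44 genes were at 0 in CCR8+ replicate 1 and 36 in CCR8+ replicate 3, compared with 0 in the remaining libraries. Results that rest on CCR8- replicate 1 are given with and without it. Ccr8, the gene of the sorting marker, had a log2 fold change of 2.37 between CCR8+ and CCR8- cells. The summed level of 8 T cell markers was between 78847 and 110370 normalized counts in CCR8- and between 78480 and 115001 in CCR8+ libraries, with none of the 8 at 0 in any library. The 5 Treg markers summed to between 2065 and 2966 in CCR8- and between 1614 and 2922 in CCR8+ libraries, and 4 of the 5 were at 0 in at least 1 library. Since the libraries are bulk, more cells with a transcript and more transcript per cell cannot be told apart.

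Across the pathway, Il2ra and Cish had the lowest p values among genes with higher levels in CCR8+ cells, and Il2 and Il2rg had lower levels in each same-numbered pair, but no gene passed the test over all genes. Limma called 0 of the 10 genes at an adjusted p under 0.05, and 0 of the 11032 genes tested (0%). At an unadjusted p under 0.05 it listed 2 of the 10, Il2ra and Cish, compared with 5.09% of all genes. On the recovered reads, edgeR called 0 of the 10 and 0 of all genes, whereas DESeq2 called 0 of the 10 and 26 of all genes (0.236%). It gave no adjusted p for some genes, among them Il2, Stat5a and Stat5b, and these count as not called. When blocked by replicate number, DESeq2 called 0 of the 10, each with an adjusted p, and 124 of all genes (1.12%). The populations overlapped for each of the 10 genes, where 2.37% of all genes were higher and 2.03% lower in CCR8+ cells without overlap. Il2ra and Stat5a were higher in CCR8+ cells in 4 of 4 same-numbered pairs (8.44% of all genes) and Il2 and Il2rg were lower in 4 of 4 (8.1% of all genes). The median log2 fold change of the 10 genes was 0.30, compared with 0.04 over all genes, and 7 of the 10 were higher in CCR8+ cells, compared with 52.4% of all genes. Leaving out CCR8- replicate 1, the median of the 10 was 0.16 and that of all genes -0.08, and 6 of the 10 were higher, compared with 44.4% of all genes. The populations still overlapped for each of the 10 genes, where 3.49% of all genes were then higher and 4.26% lower without overlap. Limma's adjusted p values for the 10 were between 0.838 and 0.966, and the smallest over all genes was 0.788. A positive log2 fold change stands for a higher level in CCR8+ cells on the log2(normalized count + 1) scale. The exact permutation tests are two-sided, cover 70 label assignments and cannot give a p below 0.0286.

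**Figure D1:**
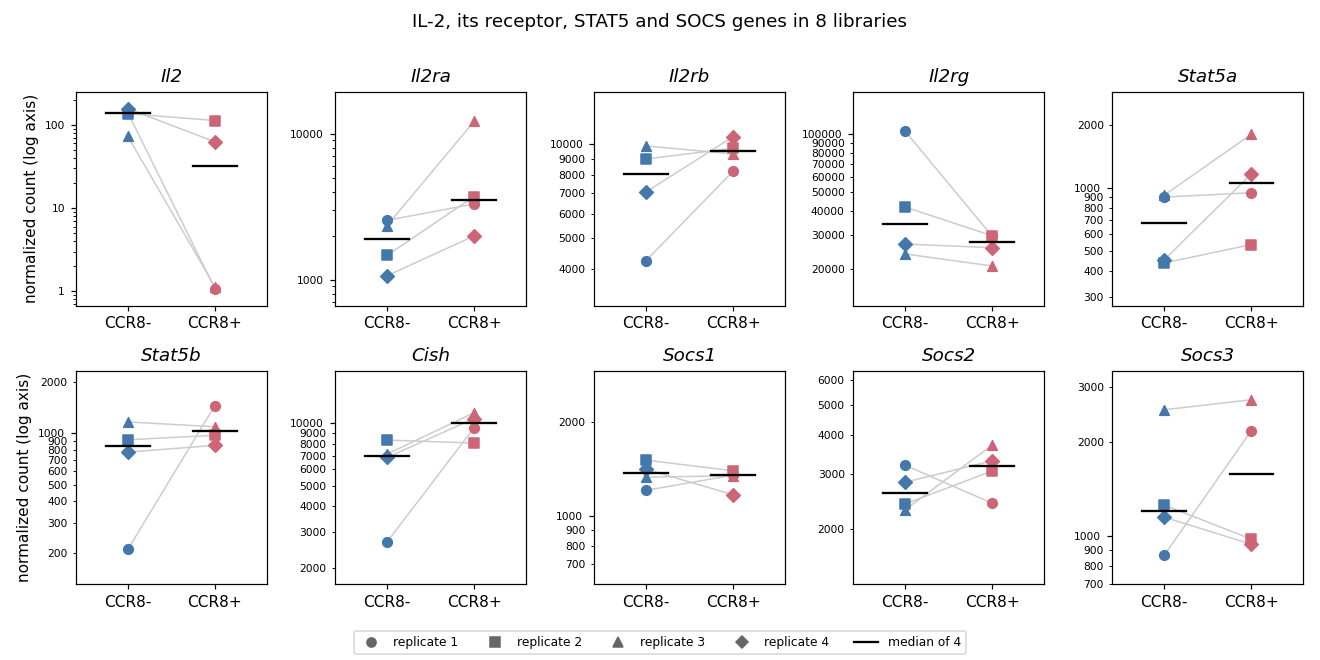
Normalized counts (log axis) of the 10 genes in the 4 CCR8- (blue) and 4 CCR8+ (red) libraries, with the symbol giving the replicate number, grey lines joining libraries of the same number and black bars at the median of 4. Il2 spans from 1.08 to 157 normalized counts and Socs1 from 1167 to 1506, and the populations overlap for each gene.

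The gene of the cytokine was the most variable of the 10. Il2 (chromosome 3, 37120523 to 37125959) had 140, 137, 72.8 and 157 normalized counts in CCR8- replicates 1 to 4 and 1.08, 113, 1.14 and 62.7 in CCR8+ replicates 1 to 4. These are 142, 187, 83 and 138 reads in CCR8- and 1, 134, 1 and 72 reads in CCR8+ libraries. CCR8+ replicates 1 and 3 therefore lay under 3 reads, while CCR8+ replicate 2 exceeded CCR8- replicate 3, so the populations overlapped. The means were 127 ± 36.9 and 44.4 ± 53.9 (SD, n = 4). On the log2 scale the difference was -3.20 (standard error 1.59, 95% interval -6.69 to 0.30) with an exact permutation p of 0.0571 and a limma adjusted p of 0.838. Because 2 libraries held 1 read each, the size of this difference depended on how low values were handled: it was -2.03 with a pseudocount of 10 and -1.49 with edgeR on the reads. The ratio of the means was 0.35.

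The receptor chains went in different directions. Il2ra (chromosome 2, 11642807 to 11693193), the high-affinity chain, had 2546, 1463, 2342 and 1062 normalized counts in CCR8- replicates 1 to 4 and 3293, 3707, 12117 and 1990 in CCR8+ replicates 1 to 4. CCR8+ replicate 3 was far above all other libraries, and CCR8+ replicate 4 lay below 2 CCR8- libraries. Each CCR8+ library was nonetheless above the CCR8- library of its own number, by 0.37, 1.34, 2.37 and 0.91 on the log2 scale. Il2ra had a log2 fold change of 1.25 (standard error 0.49, 95% interval 0.17 to 2.32) with an exact permutation p of 0.0857 and a limma adjusted p of 0.838. It was 0.73 without CCR8+ replicate 3 and 1.43 without CCR8- replicate 1.

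Il2rb (chromosome 15, 78479256 to 78495271) encodes the signaling chain shared with the IL-15 receptor. It had 4242, 8972, 9876 and 7037 normalized counts in CCR8- libraries and 8200, 9713, 9309 and 10578 in CCR8+ libraries. The CCR8+ libraries lay within the upper range of the CCR8- ones except for the highest, and CCR8- replicate 1 was lowest of all 8. For Il2rb the log2 fold change was 0.39 (standard error 0.27, 95% interval -0.20 to 0.98; limma adjusted p = 0.838), and it was 0.14 without CCR8- replicate 1.

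Il2rg (chromosome X, 101264378 to 101268255) encodes the common gamma chain, which receptors for several other cytokines also use. It had 103093, 41905, 24007 and 27019 normalized counts in CCR8- libraries and 29657, 29809, 20814 and 25849 in CCR8+ libraries. CCR8- replicates 1 and 2 were above all CCR8+ libraries, and CCR8- replicates 3 and 4 lay within their range. Its differences within the pairs 1 to 4 were -1.80, -0.49, -0.21 and -0.06 on the log2 scale. The log2 fold change was -0.64 (standard error 0.43, 95% interval -1.58 to 0.30; limma adjusted p = 0.838), and it was -0.20 without CCR8- replicate 1, with CCR8- libraries at 30977 ± 9583 (SD, n = 3) normalized counts. In the GENCODE annotation 728 of its 2387 exonic bases are shared with Gm20489 on the same strand, so the counting could have divided reads between them.

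Set per kilobase of exon, the common gamma chain was by far the most abundant transcript of the receptor. Lengths count every base that is exonic in any annotated transcript, so values per kilobase depend on the annotation. Il2rg had 20530 normalized counts per kilobase in CCR8- libraries (10058 to 43189) and 11115 in CCR8+ libraries (8720 to 12488). Il2rb followed with 1757 (990 to 2304) and 2204 (1913 to 2467), and Il2ra with 325 (186 to 446) and 924 (348 to 2122). The ratio of Il2rb to Il2ra per length was 2.22, 8.17, 5.62 and 8.83 in CCR8- replicates 1 to 4 and 3.32, 3.49, 1.02 and 7.08 in CCR8+ replicates 1 to 4. In CCR8+ replicate 3 the transcripts of CD25 and CD122 were thus near parity by this measure. The populations overlapped in this ratio, with medians of 6.89 and 3.4. The ratio of Il2rg to Il2ra was between 24.5 and 96.9 in CCR8- and between 4.11 and 31.1 in CCR8+ libraries.

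The STAT5 genes lie side by side on chromosome 11 and encode closely related proteins. Stat5a (100859351 to 100885169) had 902, 436, 920 and 451 normalized counts in CCR8- libraries and 946, 534, 1803 and 1164 in CCR8+ libraries. It was higher in CCR8+ cells in 4 of 4 pairs, by 0.07, 0.29, 0.97 and 1.37 on the log2 scale, and CCR8+ replicate 2 lay below CCR8- replicates 1 and 3. Its log2 fold change was 0.67 (standard error 0.42, 95% interval -0.24 to 1.59; exact permutation p = 0.143; limma adjusted p = 0.838), and 0.40 without CCR8+ replicate 3, the library that was also highest for Il2ra. Stat5b (100780731 to 100850724) had 210, 915, 1162 and 776 normalized counts in CCR8- libraries and 1449, 972, 1090 and 848 in CCR8+ libraries. Apart from the low CCR8- replicate 1 and the high CCR8+ replicate 1, the libraries lay within a common range, and the pair differences were 2.78, 0.09, -0.09 and 0.13. The log2 fold change of 0.73 (standard error 0.48, 95% interval -0.33 to 1.78; limma adjusted p = 0.838) became 0.19 without CCR8- replicate 1. Per kilobase Stat5b exceeded Stat5a by a median ratio of 1.92 in CCR8- libraries (0.299 to 2.7) and 1.46 in CCR8+ libraries (0.779 to 2.34). These ratios rest on lengths of 5539 exonic bases for Stat5b and 7133 for Stat5a. Of the 50-base stretches of the transcripts, 8.21% of those of Stat5a and 11% of those of Stat5b are found in the other gene, and a read that lies within such a stretch has no unique place. A further 72 exonic bases of Stat5a are shared with Stat3 on the other strand.

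Of the feedback genes, Cish had the largest log2 fold change. Cish (chromosome 9, 107296026 to 107302784), whose start site holds both matches shown above, had 2676, 8315, 7113 and 6851 normalized counts in CCR8- libraries and 9526, 8041, 11255 and 10552 in CCR8+ libraries. The lowest CCR8+ library lay just below the highest CCR8- one, and those were the libraries numbered 2. The means were 6239 ± 2459 and 9843 ± 1396 (SD, n = 4), and without CCR8- replicate 1 the CCR8- mean was 7426 ± 781 (SD, n = 3). Cish had a log2 fold change of 0.77 (standard error 0.33, 95% interval 0.04 to 1.49) with an exact permutation p of 0.0571 and a limma adjusted p of 0.838, and it was 0.40 without CCR8- replicate 1. Of the exonic bases of Cish, 11.5% are shared with Gm17040 and Gm17041 on the other strand, and as the use of strand in the counting is not given in the sources used here, reads there could not be assigned to a single gene.

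Socs1 (chromosome 16, 10782240 to 10785536), an inhibitor of JAK kinases, was the steadiest of the 10 genes. It had 1206, 1506, 1328 and 1409 normalized counts in CCR8- and 1348, 1393, 1343 and 1167 in CCR8+ libraries. All 8 values lay between 1167 and 1506, with a standard deviation of 0.12 on the log2 scale, compared with a median of 0.85 over all genes. That median includes genes down to a mean of 10 normalized counts, so it is not a comparison at the level of Socs1. Socs1 had a log2 fold change of -0.05 (standard error 0.21, 95% interval -0.50 to 0.40; limma adjusted p = 0.966).

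Socs2 (chromosome 10, 95385362 to 95417180), known for its part in growth hormone signaling, had 3206, 2412, 2309 and 2829 normalized counts in CCR8- and 2424, 3073, 3720 and 3315 in CCR8+ libraries. It was higher in CCR8+ cells in 3 of 4 pairs, and CCR8+ replicate 1 lay below 2 CCR8- libraries. The log2 fold change was 0.22 (standard error 0.21, 95% interval -0.25 to 0.68; limma adjusted p = 0.847), and 0.13 without CCR8+ replicate 3. Socs3 (chromosome 11, 117966079 to 117970047), which binds the receptors of the IL-6 family, had 867, 1254, 2533 and 1147 normalized counts in CCR8- and 2170, 976, 2726 and 940 in CCR8+ libraries. The libraries numbered 3 were high in both populations, those numbered 2 and 4 were low in both, and those numbered 1 differed. The log2 fold change of 0.20 (standard error 0.42, 95% interval -0.73 to 1.12; limma adjusted p = 0.937) was -0.01 without CCR8- replicate 1 and -0.08 without CCR8+ replicate 3.

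**Figure D2:**
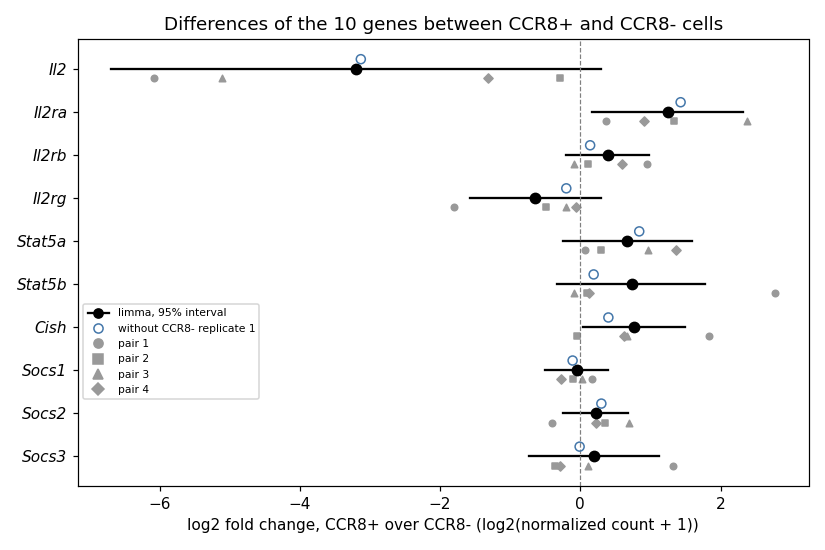
Log2 fold change of each of the 10 genes, CCR8+ over CCR8- cells, from limma with its 95% interval (black), the same without CCR8- replicate 1 (open blue circles) and the difference of each same-numbered pair (grey, symbol by replicate number). The intervals of Il2ra and Cish lie above 0 before adjustment, and without CCR8- replicate 1 the values of Il2rb, Il2rg, Stat5b and Socs3 are 0.14, -0.20, 0.19 and -0.01.

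The levels of the 10 genes per kilobase of exon were also ordered within each population. The order depends on the annotated lengths, which were 6419 exonic bases for Cish, 9531 for Socs2 and 2908 for Socs1. In CCR8- libraries the means were 20530 for Il2rg, 1757 for Il2rb, 972 for Cish, 502 for Socs3, 468 for Socs1, 325 for Il2ra, 282 for Socs2, 138 for Stat5b, 111 for Il2 and 95 for Stat5a. Only Il2rg from Il2rb and Socs2 from Stat5b were separated without overlap among neighbors in this sequence. In CCR8+ libraries the means were 11115 for Il2rg, 2204 for Il2rb, 1533 for Cish, 924 for Il2ra, 589 for Socs3, 451 for Socs1, 329 for Socs2, 197 for Stat5b, 156 for Stat5a and 38.8 for Il2. Here Il2rg was separated from Il2rb, Il2rb from Cish and Socs1 from Socs2, whereas the other neighbors overlapped. Il2ra was the sixth of the 10 in CCR8- and the fourth in CCR8+ cells, but it overlapped its neighbors in both.

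It was then asked whether the STAT5 genes and the feedback genes follow Il2ra over the 8 libraries. None of the 9 relations passed after adjustment (exact permutation over 40320 orderings, Benjamini-Hochberg over 9). Stat5a had the highest correlation, with Pearson's r of 0.74 (exact permutation p = 0.027, adjusted p = 0.156) and Spearman's rho of 0.57 (exact permutation p = 0.151). Il2 had the lowest, with r of -0.74 (exact permutation p = 0.0347, adjusted p = 0.156) and rho of -0.60 (exact permutation p = 0.132). CCR8- replicate 4 and CCR8+ replicate 3 were the 2 libraries farthest from the median of Il2ra. Without them r was 0.18 for Stat5a and -0.42 for Il2 over 6 libraries. Leaving out the extremes narrows the range of Il2ra and can itself lower r, so it cannot decide what a relation rests on. For Stat5a r was 0.66 without CCR8- replicate 4 alone and 0.47 without CCR8+ replicate 3 alone. With group means removed, r was 0.63 for Stat5a and -0.56 for Il2 (exact permutation p = 0.139 and 0.431).

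The genes of the feedback inhibitors did not follow Il2ra together. For Cish r was 0.29 and rho 0.38 (exact permutation p = 0.406 and 0.36), for Socs1 r was -0.12 and rho -0.24 (p = 0.777 and 0.582, exact permutation), for Socs2 r was 0.54 and rho 0.43 (p = 0.168 and 0.299, exact permutation) and for Socs3 r was 0.53 and rho 0.29 (p = 0.174 and 0.501, exact permutation). Their adjusted p values for r were 0.672, 0.777, 0.391 and 0.391. Without the 2 farthest libraries r was -0.08, -0.11, 0.18 and 0.09 in the same order. The library with the most Il2ra, CCR8+ replicate 3, was the highest of the 8 for Cish, Socs2 and Socs3, while CCR8- replicate 1, with an intermediate 2546 normalized counts of Il2ra, was lowest for Cish and Socs3. Without CCR8- replicate 1, r of Cish with Il2ra was 0.66, and without CCR8+ replicate 3 it was -0.03. For Il2rb, Il2rg and Stat5b r was 0.18, -0.25 and 0.20 (exact permutation p = 0.597, 0.449 and 0.535, adjusted p = 0.672 for each), with rho of 0.12, -0.17 and 0.50 (exact permutation p = 0.793, 0.703 and 0.216). Without the 2 farthest libraries r was -0.11, -0.09 and 0.09.

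**Figure D3:**
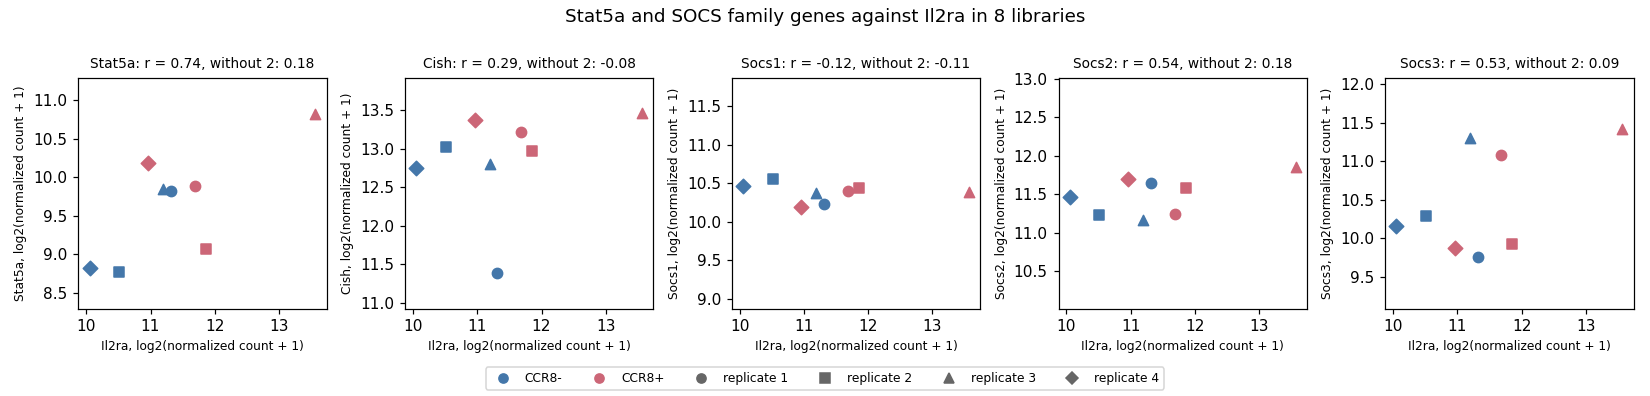
Stat5a, Cish, Socs1, Socs2 and Socs3 against Il2ra in the 8 libraries, both as log2(normalized count + 1), with color for CCR8- (blue) or CCR8+ (red) and symbol for the replicate number. Above each panel stand r over 8 libraries and r without CCR8- replicate 4 and CCR8+ replicate 3, which for Stat5a are 0.74 and 0.18.

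As a description, the r of Il2ra was compared with all 8407 genes that had a mean of at least 100 normalized counts. A higher r than that of the named gene was found for 2.01% of genes for Stat5a, 7.93% for Socs2, 8.08% for Socs3, 21% for Cish, 62.6% for Socs1 and 95.9% for Il2. Il2 itself had a mean under 100 normalized counts, so it was set against genes of higher level. The pattern most like that of Il2ra belonged to Sh3bgrl, Il4, St3gal1, Arl14ep and Rbbp7, with r between 0.95 and 0.97 over 8 libraries. Il4 had 3885, 2105, 2729 and 1384 normalized counts in CCR8- and 3567, 3245, 13172 and 2115 in CCR8+ libraries, with CCR8+ replicate 3 highest as for Il2ra.

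Among the 45 pairs of the 10 genes none passed after adjustment. A block of 4 genes, Il2rb, Stat5b and Cish in one direction and Il2rg in the other, had the largest correlations. The r of Cish with Il2rb was 0.90 (exact permutation p = 0.0218, adjusted p = 0.245, rho 0.52), with Stat5b it was 0.90 and with Il2rg it was -0.89. Without CCR8- replicate 1, which was lowest for Il2rb, Stat5b and Cish and highest for Il2rg, these were 0.42, 0.25 and -0.28. Over the 8 libraries the number of genes detected had an r of 0.73 with Il2rb, 0.57 with Stat5b, 0.59 with Cish and -0.60 with Il2rg, and its part in these relations was not tested.

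The other genes of the pathway were described by lists, in which limma called 0 genes, with adjusted p values from 0.788 to 0.995. Of 11 proximal signaling genes 4 were higher (52.4% of all genes) and 7 lower in CCR8+ cells, with a median log2 fold change of -0.09. Of the 11, 1 had an unadjusted p under 0.05 (5.09% of all genes). Without overlap 1 was higher (2.37% of all genes) and 1 lower (2.03%). Pik3cd, the catalytic subunit of a PI3-kinase of lymphocytes, had 1757, 1621, 2699 and 1419 normalized counts in CCR8- and 1233, 1389, 768 and 1011 in CCR8+ libraries, so that the populations did not overlap (log2 fold change -0.76, limma adjusted p = 0.838). Hras, which links the receptor to the MAP kinases, did not overlap either, with 660 to 870 in CCR8- and 924 to 1093 normalized counts in CCR8+ libraries (log2 fold change 0.40). Lck had a log2 fold change of -0.37 and Jak3, the kinase bound to the common gamma chain, 0.26 (0.09 without CCR8- replicate 1), while Sos1 had -0.79, all with overlap. Of 7 other STAT and JAK genes 4 were higher (52.4% of all genes) and 3 lower, with a median of 0.03. Of the 7, 1 had an unadjusted p under 0.05 (5.09% of all genes) and 1 was higher without overlap (2.37% of all genes). Stat3, which acts downstream of IL-6 and IL-21, had 2801, 3297, 3494 and 3609 normalized counts in CCR8- and 3842, 4630, 7558 and 6224 in CCR8+ libraries without overlap (log2 fold change 0.71, limma adjusted p = 0.838). Stat2, a mediator of type I interferon signaling, was lower in CCR8+ cells in 4 of 4 pairs with overlap. Its log2 fold change of -1.78 was -1.23 without CCR8- replicate 1, where it was highest. Stat4 and Jak2 had log2 fold changes of -0.24 and 0.23. Without CCR8- replicate 1 the medians of the lists were -0.16 for proximal signaling and -0.26 for STAT and JAK genes, and Stat4 and Jak2 had -0.39 and 0.35.

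Of 8 other cytokines and receptors of the common gamma chain family 7 were higher in CCR8+ cells (52.4% of all genes), with a median log2 fold change of 0.93. Of the 8, 2 had an unadjusted p under 0.05 (5.09% of all genes). Without CCR8- replicate 1, 5 of the 8 were higher (44.4% of all genes) and the median was 0.15. Il21, the cytokine of follicular helper cells, had 0, 56.6, 566 and 219 normalized counts in CCR8- and 415, 660, 2461 and 1137 in CCR8+ libraries. The CCR8+ libraries were high throughout, and CCR8- replicate 3 overlapped them. Its log2 fold change of 4.18, with a standard error of 1.61 and a limma adjusted p of 0.838, was 2.28 without CCR8- replicate 1, where it was at 0. Il9r, the chain specific to the IL-9 receptor, had 16.7, 177, 363 and 15.9 in CCR8- and 868, 365, 786 and 303 normalized counts in CCR8+ libraries, with overlap only of CCR8- replicate 3 with CCR8+ replicate 4 (log2 fold change 2.98, limma adjusted p = 0.838). Il15 and Il15ra had log2 fold changes of 1.14 and 0.97, which were 0.24 and -0.41 without CCR8- replicate 1.

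Of 16 other SOCS genes and negative regulators 5 were higher (52.4% of all genes) and 11 lower in CCR8+ cells, with a median log2 fold change of -0.45. Of the 16, 1 had an unadjusted p under 0.05 (5.09% of all genes) and 2 were lower without overlap (2.03% of all genes). Without CCR8- replicate 1, 3 of the 16 were higher (44.4% of all genes) and the median was -0.40. Pias1, a SUMO ligase, had 2560, 1313, 1057 and 995 normalized counts in CCR8- and 293, 913, 834 and 304 in CCR8+ libraries without overlap (log2 fold change -1.42, standard error 0.46, limma adjusted p = 0.838; -1.12 without CCR8- replicate 1). Ptpn1, a tyrosine phosphatase that acts on JAK2 and TYK2, did not overlap either, with 3784 to 4859 in CCR8- and 3249 to 3648 normalized counts in CCR8+ libraries (log2 fold change -0.25). The largest of the positive values was that of Pias3, with a log2 fold change of 2.48 that became 1.19 without CCR8- replicate 1, where it was at 0. Pias2, Socs6 and Socs5 had log2 fold changes of 1.30, -1.06 and 0.96 with overlap, which were 0.56, -2.22 and -0.69 without CCR8- replicate 1.

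The genes that IL-2 and STAT5 are known to induce in T cells showed a similar dependence on 1 library. Of 26 such genes 16 were higher (52.4% of all genes) and 10 lower in CCR8+ cells, with a median log2 fold change of 0.38. Of the 26, 5 had an unadjusted p under 0.05 (5.09% of all genes). Without CCR8- replicate 1, 14 of the 26 were higher (44.4% of all genes) and the median was 0.05, while that of all genes was -0.08. For 3 of the 26 genes CCR8+ cells were higher without overlap, both with this library (2.37% of all genes) and without it (3.49% of all genes). Bcl2l1, which encodes the survival protein BCL-XL, had 517, 1397, 2261 and 1537 normalized counts in CCR8- and 3086, 2538, 4520 and 4736 in CCR8+ libraries (log2 fold change 1.51, exact permutation p = 0.0286, DESeq2 adjusted p = 0.0604). Ctla4, the inhibitory receptor for CD80 and CD86, had 8108, 11164, 7662 and 11692 in CCR8- and 21079, 15421, 43338 and 23473 normalized counts in CCR8+ libraries (log2 fold change 1.34, exact permutation p = 0.0286, DESeq2 adjusted p = 0.00225). Tnfrsf9, the gene of 4-1BB, had 3248, 4823, 2358 and 4987 in CCR8- and 7710, 10436, 16052 and 10938 normalized counts in CCR8+ libraries (log2 fold change 1.57, exact permutation p = 0.0286, DESeq2 adjusted p = 0.000726). Higher levels without overlap by themselves fix the exact permutation p at its minimum of 0.0286 and a higher level in 4 of 4 pairs. Neither therefore adds to the lack of overlap by which these genes were named. Ctla4 and Tnfrsf9 passed with DESeq2 but not with limma. Cdk6, Lta, Il12rb1 and Osm had larger log2 fold changes of 2.54, 2.25, 1.74 and 1.65 with overlap, which were 0.30, 0.12, 0.27 and 0.62 without CCR8- replicate 1.

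Of 9 genes that IL-2 and STAT5 are known to repress 7 were lower and 2 higher in CCR8+ cells (52.4% of all genes higher). The median log2 fold change was -0.96, and -1.02 without CCR8- replicate 1. Of the 9, 3 had an unadjusted p under 0.05 (5.09% of all genes). Klf2, which maintains genes of recirculating T cells, had 735, 2144, 4434 and 2220 normalized counts in CCR8- and 1573, 1101, 661 and 504 in CCR8+ libraries. CCR8- replicate 1 was the library of its population that overlapped the CCR8+ ones, and the log2 fold change of -1.19 (limma adjusted p = 0.838) was -1.66 without it. Il6st, the shared signaling chain of the IL-6 family, had 910, 154, 452 and 215 in CCR8- and 209, 113, 66.1 and 71.4 normalized counts in CCR8+ libraries and was lower in 4 of 4 pairs (log2 fold change -1.73, limma adjusted p = 0.838). Without CCR8- replicate 1 its log2 fold change was -1.26. Il6ra had a log2 fold change of -1.25 with overlap. Il17a had 447 normalized counts in CCR8+ replicate 4, 9.24 in CCR8+ replicate 2 and at most 1 read in each other library.

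Over the 8 libraries, 15 of the 26 induced genes and 2 of the 9 repressed genes had a positive r with Il2ra, compared with 46.1% of all genes. The median r was 0.13 for the induced and -0.35 for the repressed genes, compared with -0.03 for all genes. These are descriptions over genes that share the same libraries.

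**Figure D4:**
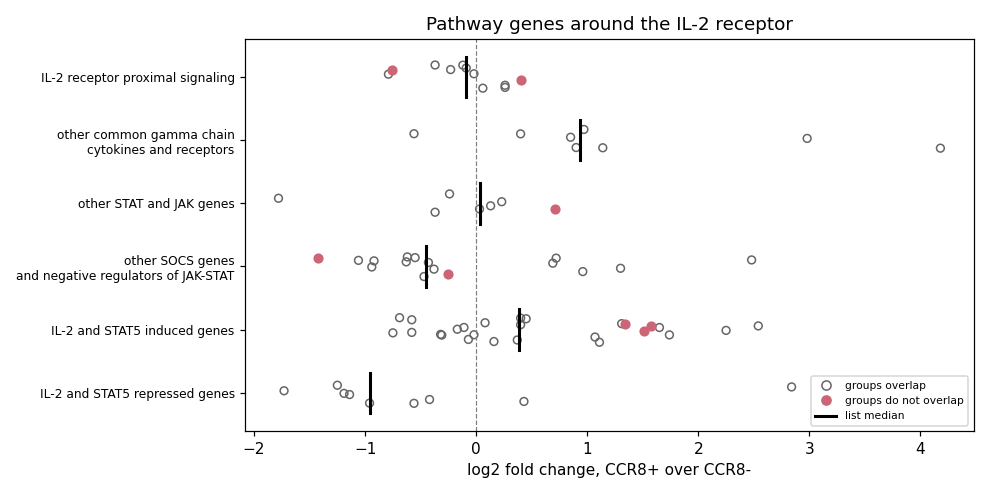
Log2 fold change, CCR8+ over CCR8- cells, of each gene of 6 pathway lists (rows), with filled red points where the populations do not overlap, open points where they do and a black bar at the median of the list. The medians run from -0.96 for repressed genes to 0.93 for the other common gamma chain genes, with 0.38 for induced genes.

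Markers of other cell types varied widely among the libraries of both populations. The 10 macrophage markers summed to 85.7, 4118, 1446 and 81519 normalized counts in CCR8- and 26971, 18045, 3225 and 25009 in CCR8+ replicates 1 to 4, with 4 of the 10 at 0 in at least 1 library. The 6 melanoma markers summed to between 105 and 17324 in CCR8- and between 232 and 21762 in CCR8+ libraries. CD8 T cell markers summed to between 980 and 3805 in CCR8- and between 478 and 1227 in CCR8+ libraries, and those of NK cells to between 4.93 and 677 and between 25.9 and 208. B cell markers reached at most 447, dendritic cell markers 721 and the mast cell marker Cpa3 68.4 normalized counts. CCR8+ replicate 3, with the most Il2ra, had the fewest macrophage and melanoma markers of the CCR8+ libraries. CCR8- replicate 1, with the most Il2rg and the least Cish, had the fewest of all 8. The part of these markers in the results was not tested.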

How the data were processed

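RNA was measured in 8 libraries of CCR8+ and CCR8- Tconv cells made with a low-input kit. Per the methods, the authors trimmed reads with Cutadapt, aligned them with hisat2 to NCBIM37 (mm9 in the submitters' processing notes) and scaled the uniquely mapped reads by library size with intergenic reads. HTSeq, FastQC and DESeq2 are named in the same notes. Per gene, the deposited signal, called FPM, was made of whole multiples of the value of 1 read, 0.735 to 1.14 (100% of values, within 0.01 reads). Their totals were 11469410 to 14394101 per library. The submitters' use of strand is not given in the sources used here. Groups came from the sample labels, and 1 gene name was listed more than once.

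Values were tested as log2(normalized count + 1) with limma 3.58.1 (intensity trend, R 4.3.3) over 11032 genes (mean of 10 or more), adjusted by Benjamini-Hochberg. DESeq2 1.42.0 (Wald test) and edgeR 4.0.16 (quasi-likelihood) were run on the recovered reads of the same genes with their own size factors. Correlations used all 40320 orderings of the libraries. Tests were checked on simulated data. Gene positions are from GENCODE M21 on GRCm38, a later build than that of the alignment, and serve only to locate genes. Lengths are the bases that are exonic in any annotated transcript of a gene. The named list genes were those called, those whose groups did not overlap and up to 4 more with the largest change, and Gab2, Il7 and Il9 were not analysed here. Some genes that this rule names are not reported here. The 10 genes and the lists were chosen with earlier results of these data known. Counts and medians without CCR8- replicate 1 were chosen after seeing the data. Alternatives were pseudocounts of 0.1 and 10, no minimum mean and one of 100, other scalings, the replicate block, limma without trend and leaving out libraries.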

Additional observations from a re-analysis of the deposited data

Results flagged for a closer look

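Of 20 groups of 4 libraries (10 genes in each population), 1 held a library far from the others by Dixon's criterion, which chance alone meets in about 1 of 20 groups. It was Il2ra in CCR8+ replicate 3, with 12117 normalized counts, while the other CCR8+ libraries had 1990 to 3707. Without this library the log2 fold change of Il2ra was 0.73 in place of 1.25.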

How the results depend on the processing

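Over the alternatives, 239 values of the log2 fold change of the 10 genes were computed. Of these 234 kept their direction, 5 reversed and 0 passed the threshold, where Il2, Stat5a and Stat5b had no adjusted p in DESeq2 without the block. The number of genes called was 0 with limma, 1 with the replicate block, 2 without the trend, 26 with DESeq2 and 124 with DESeq2 and the block, and the cause was not tested. Those calls held 0 of the 10 genes in each case, and the nearest was Il2ra with an adjusted p of 0.0506 in DESeq2 with the block, compared with 0.108 without it. Same-numbered libraries deviated together with r of 0.0682, 0.138, 0.108 and 0.217, above 0.1 in 3 of 4 pairs, and 7 of the 8 libraries correlated best with the library of their own number. As the labels do not say what a number stands for and not every pair was above 0.1, the libraries were not treated as paired. With libraries or replicate numbers left out, the log2 fold change of Socs3 was between -0.18 and 0.50 and that of Socs1 between -0.12 and 0.02. Of 135 correlations with Il2ra, 11 reversed. With group means removed, r was -0.20 for Il2rb, 0.06 for Il2rg, -0.13 for Stat5b, -0.18 for Cish and 0.03 for Socs1, and without the 2 libraries farthest from the median of Il2ra it was -0.11 for Il2rb and -0.08 for Cish. The other relations kept their direction with group means removed, with r of 0.63 for Stat5a, -0.56 for Il2, 0.36 for Socs2 and 0.57 for Socs3. With single libraries left out, r of Il2rg lay between -0.56 and 0.10, that of Cish between -0.03 and 0.66 and that of Socs1 between -0.31 and 0.10. Without CCR8+ replicate 2, r was 0.86 for Stat5a and -0.81 for Il2, both at an adjusted p of 0.0491 (exact permutation). For genes under 3 reads in some libraries, such as Il2 in 2 CCR8+ libraries, the size of the difference depends on how low values are handled.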
